A study of Rattus norvegicus with 18 samples.

Results

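The interferon-stimulated and class I processing genes are a list of 41 symbols that were looked up by name in a table of gene expression in rat kidney cortex. The table held 40 of the 41 symbols, and 39 of these passed the filter on low values and were tested. Ifit1, an RNA-binding antiviral protein, did not reach the filter, with 0 to 3.92 normalised reads over all 18 libraries, and Bst2 was not analysed here. The table was made by RNA-seq of polyadenylated RNA from the cortex of ZDF (Zucker diabetic fatty) rats, a strain that turns obese and diabetic when both copies of Lepr, the gene of the leptin receptor, carry the fa allele. The RYGB group was fa/fa, diabetic and had undergone Roux-en-Y gastric bypass, surgery that leaves a small stomach pouch joined directly to the jejunum. The disease group was fa/fa and diabetic, with no operation named in its labels. The healthy control group was fa/+, lean and non-diabetic, so all 3 groups carried at least 1 fa allele. Each group had 6 libraries. The labels give neither sex nor age, name no sham operation, and leave unsaid whether libraries are separate animals, so a p-value here reflects library-to-library spread, which may be technical.

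Interferons are secreted proteins that cells release on sensing viral nucleic acid or on immune activation. Type I interferon acts through a complex that includes STAT2 and IRF9 and binds interferon-stimulated response elements in promoters, and IRF1 carries a later step of the response to interferon gamma. The genes switched on encode sensors of foreign RNA, antiviral effectors, the ubiquitin-like protein ISG15 and its enzymes, and the machinery that cuts proteins into peptides and loads them on class I molecules for display to cytotoxic T cells. In kidney, tubular, endothelial and resident immune cells can all express this programme.

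Promoter windows of RefSeq on the GRCr8 build, 300 bases each from 250 before to 50 after the gene's start, were at hand for 32 of the members. The windows were searched on both strands for GAAANNGAAA, the core shared by interferon-stimulated response elements, in which N is any base and overlapping matches count separately. The core was found in 21 of the 32 member windows (65.6%), against 1312 of all 33469 windows (3.92%). It was present in the windows of 6 of 7 class I processing genes, 4 of 6 antiviral effectors, 4 of 5 other interferon-induced genes, 3 of 4 interferon-induced GTPases, 2 of 3 ADP-ribosylation genes, Ifih1 among the RNA sensors and Irf7 among 4 transcription regulators, and in neither of the windows of Herc6 and Trim25. A match describes the letters only, and no match says only that they are not in this window. Mx2 and Ifit2, both called by limma in RYGB against healthy control, were not among the 32. Of the 5 windows printed here 1 is that of Parp9, called by limma in RYGB against disease, which had no match. The other 4 belong to members that limma did not call and that had a match: Ifih1 and Parp14, whose means were lowest in RYGB libraries, and Tap1 and Tapbp, whose means were highest there. They lie at chr3:67683919-67684218 on the minus strand (Ifih1), chr11:78318962-78319261 on the minus strand (Parp9), chr11:78407884-78408183 on the plus strand (Parp14), chr20:4668494-4668793 on the minus strand (Tap1) and chr20:4967828-4968127 on the minus strand (Tapbp). Each is printed 5′ to 3′ on the gene's strand, and capitals mark the core or its reverse complement TTTCNNTTTC.
Ifih1: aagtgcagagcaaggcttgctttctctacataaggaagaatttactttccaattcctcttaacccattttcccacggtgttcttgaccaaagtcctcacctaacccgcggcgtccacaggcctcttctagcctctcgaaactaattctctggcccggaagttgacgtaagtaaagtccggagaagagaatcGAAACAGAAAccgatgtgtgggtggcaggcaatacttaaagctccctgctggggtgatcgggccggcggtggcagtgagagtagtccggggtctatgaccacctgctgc
Parp9: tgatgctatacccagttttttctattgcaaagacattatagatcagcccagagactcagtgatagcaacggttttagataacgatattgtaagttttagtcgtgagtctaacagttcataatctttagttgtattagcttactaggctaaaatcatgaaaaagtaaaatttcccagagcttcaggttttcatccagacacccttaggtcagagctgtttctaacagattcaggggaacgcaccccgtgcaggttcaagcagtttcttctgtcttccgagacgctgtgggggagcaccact
Parp14: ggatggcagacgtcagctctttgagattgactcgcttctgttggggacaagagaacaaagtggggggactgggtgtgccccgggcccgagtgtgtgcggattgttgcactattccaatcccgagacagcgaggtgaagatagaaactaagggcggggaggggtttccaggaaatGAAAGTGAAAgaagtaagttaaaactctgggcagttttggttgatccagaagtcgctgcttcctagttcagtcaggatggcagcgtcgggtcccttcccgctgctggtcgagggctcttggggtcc
Tap1: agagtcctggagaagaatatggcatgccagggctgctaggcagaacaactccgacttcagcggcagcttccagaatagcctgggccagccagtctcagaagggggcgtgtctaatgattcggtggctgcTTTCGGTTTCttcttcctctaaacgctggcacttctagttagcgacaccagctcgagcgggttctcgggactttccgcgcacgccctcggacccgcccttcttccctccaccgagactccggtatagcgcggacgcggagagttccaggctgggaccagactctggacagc
Tapbp: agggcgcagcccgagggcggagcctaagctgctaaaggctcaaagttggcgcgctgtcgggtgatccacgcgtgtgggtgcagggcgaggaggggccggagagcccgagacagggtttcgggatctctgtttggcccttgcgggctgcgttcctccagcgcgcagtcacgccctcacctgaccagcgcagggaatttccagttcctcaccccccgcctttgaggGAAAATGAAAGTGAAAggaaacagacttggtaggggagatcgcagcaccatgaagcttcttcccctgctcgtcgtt
Counted from the start, the first base of the match was at -59 in Ifih1, at -76 in Parp14 and at -121 in Tap1, where it is on the opposite strand. The Tapbp window holds a pair of overlapping matches, at -26 and -20, which appear as a single run of capitals. The Tap1 and Psmb9 windows share 44 bases in opposite orientation, since these neighbouring genes start close to each other and point apart. In the reference, Psmb8 is next to both Tap1 and Tap2, Parp9 is next to Dtx3l with 1 protein-coding gene between it and Parp14, and Ifit2 and Ifit3, Oasl and Oasl2, and Ifi44 and Ifi44l are neighbours.

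Values are read counts that the authors divided by a size factor per library, called normalised reads here. Library depth in gene reads was 12470525 to 42713246 for RYGB, 8157977 to 37142922 for disease and 8116638 to 34169198 for healthy control. Genes were tested with limma on log2(value + 1) in 1 fit of the 3 groups, fold changes are on that scale with their standard errors, and a call required an adjusted p under 0.05 over all 13988 tested genes. Replicate 4 of healthy control did not lie with its group. Across the 126 genes that separate the other 5 healthy control libraries from all 12 fa/fa libraries, its median position was 0.942 on a scale from 0 (healthy control) to 1 (fa/fa). Each other healthy control library was placed in the same way over its own 30 to 38 genes, at -0.10 to 0.196. Those genes were chosen with replicate 4 among the healthy controls, so the positions come from unlike sets of genes. Values without replicate 4 of healthy control are given for Mx2, Mx1, Usp18, Isg15 and Parp14, and for the count of members called in RYGB against healthy control. The fold changes given for these genes all lay farther from 0 without it, and those of the other members without it are not given. Group means, ranges, medians and counts of signs include it throughout. All 6 proximal tubule markers in the table passed the filter, and Lrp2, also on that list, was not analysed here. A filter of 10 normalised reads in 6 libraries does not tell cortex from other kidney tissue.

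In disease against healthy control no member was called. limma called 0 of the 39 members, edgeR 0 and DESeq2 1 (Herc6), where limma called 1.61% of all tested genes, edgeR 1.6% and DESeq2 2.93%. At an unadjusted p below 0.05 limma had 0 members higher and 3 lower (Herc6, Mx2 and Ifit2), against 5.19% of all tested genes higher and 5.89% lower. Fold changes were above 0 for 11 members and below 0 for 28, where 49.6% of all tested genes were below 0, with a median of -0.10 (-0.060 with quantile normalization) against 0.0016 over all tested genes. No member had groups that did not overlap, against 1.24% of all tested genes. The 5 largest fold changes were all below 0, those of Mx2 at -0.76 ± 0.28 (adjusted p = 0.249), Usp18 at -0.71 ± 0.35 (adjusted p = 0.470), Herc6 at -0.64 ± 0.17 (adjusted p = 0.0678), Isg15 at -0.62 ± 0.32 (adjusted p = 0.489) and Mx1 at -0.52 ± 0.32 (adjusted p = 0.591). Oas1a (-0.52) and Irf7 (-0.52) came close behind Mx1, and none of these passed the test.

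In RYGB against disease 1 member fell, Parp9, the ADP-ribosyltransferase that partners the ubiquitin ligase DTX3L in interferon responses. limma, edgeR and DESeq2 each called this 1 of the 39 members, where limma called 3.95% of all tested genes (2.1% lower), edgeR 4.5% and DESeq2 7.85%. At an unadjusted p below 0.05 there were 2 members higher and 5 lower, against 11.2% of all tested genes higher and 9.54% lower. Fold changes were above 0 for 18 members and below 0 for 21, where 50.1% of all tested genes were below 0, with a median of -0.011 against -0.00087 over all tested genes, and the sign of the members' median changed with the scaling (0.0044 with TMM factors). No member had groups that did not overlap, against 2.6% of all tested genes.

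Parp9 spanned 686 to 843 normalised reads in RYGB libraries (median 766), 804 to 1281 in disease libraries (median 1018) and 891 to 1100.0 in healthy control libraries (median 975). Disease replicate 3 lay within the RYGB range and the other 5 disease libraries lay above every RYGB library, so the groups overlapped by 1 library. RYGB against disease gave a fold change of -0.43 ± 0.11 (adjusted p = 0.0353). The call ended without disease replicate 1, 2 or 6 or RYGB replicate 1, 2, 4 or 6 (adjusted p 0.0648 to 0.0929), and with the compared groups alone (0.0734). The largest other fold changes were those of Ifi44l at -0.52 ± 0.23 (adjusted p = 0.210), Tap1 at 0.51 ± 0.19 (adjusted p = 0.136), Parp14 at -0.51 ± 0.19 (adjusted p = 0.140) and Nlrc5 at 0.50 ± 0.20 (adjusted p = 0.161), with Ifih1 next at -0.47 ± 0.16 (adjusted p = 0.107), and none of these passed the test.

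In RYGB against healthy control 2 antiviral effectors fell, Mx2 and Ifit2, and no member rose. limma called 2 of the 39 members, both lower, where it called 4.44% of all tested genes (1.98% lower). edgeR called 6 members (Mx2, Ifit2, Ifih1, Parp9 and Parp14 lower, Tapbp higher), against 6.05% of all tested genes, and DESeq2 called 9 (the same 6 with Herc6 and Xaf1 lower and Nlrc5 higher), against 11.5%. At an unadjusted p below 0.05 limma had 4 members higher and 12 lower, against 14.4% of all tested genes higher and 11.8% lower. Fold changes were above 0 for 12 members and below 0 for 27, where 51.6% of all tested genes were below 0, with a median of -0.17 (-0.26 with edgeR and with DESeq2) against -0.013 over all tested genes. The groups did not overlap for 2 members, both lower in RYGB libraries, Ifih1 and Parp9, against 3.22% of all tested genes in either direction and 1.4% lower. These were looked up after the values were seen, and neither was called by limma (adjusted p = 0.0530 for Ifih1 and 0.0569 for Parp9).

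Mx2, a dynamin-like GTPase that blocks virus replication, spanned 53.3 to 127 normalised reads in RYGB libraries (median 83.3), 75.6 to 264 in disease libraries (median 95.4) and 122 to 265 in healthy control libraries (median 223). The RYGB values lay below the lowest healthy control value except for replicate 3, and disease replicate 1 alone stood at the height of the highest healthy control libraries. The fold change of RYGB against healthy control was -1.17 ± 0.28 (adjusted p = 0.0242), with a mean in RYGB libraries 0.434 times that in healthy control libraries. Without healthy control replicate 1, 2, 5 or 6 or RYGB replicate 4, 5 or 6 the call ended (adjusted p 0.0508 to 0.0682), and without healthy control replicate 4 it held (-1.30, adjusted p = 0.00743). Mx2 in disease against healthy control, not called with all libraries, was called without disease replicate 1 (-1.01, adjusted p = 0.0339).

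Ifit2, which binds RNA and restrains translation, spanned 198 to 326 normalised reads in RYGB libraries (median 239.6), 236 to 414 in disease libraries (median 303) and 304 to 589 in healthy control libraries (median 381). Only the highest RYGB library, replicate 3, reached into the healthy control range, and the disease libraries lay across both. The fold change of RYGB against healthy control was -0.74 ± 0.17 (adjusted p = 0.0231), with a mean in RYGB libraries 0.596 times that in healthy control libraries. This call ended without healthy control replicate 1 or 2 or RYGB replicate 4, 5 or 6 (adjusted p 0.0515 to 0.0694). The count of 2 members called was 0 without healthy control replicate 1 or 2 or RYGB replicate 4, 5 or 6, and 1 without healthy control replicate 5 or 6. It was 3 without disease replicate 1, 4 without disease replicate 3, and 7 without healthy control replicate 4, disease replicate 6 or RYGB replicate 3. The share of all tested genes called moved too, from 4.44% with all libraries. It was 1.49 to 2.15% where 0 members were called, 1.91 and 2.21% where 1 was, 4.63% without disease replicate 1 and 5.2% without disease replicate 3. It was 10.8% without healthy control replicate 4, 7.49% without disease replicate 6 and 9.99% without RYGB replicate 3. The 3 comparisons share groups, so their values are not independent of each other.

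**Figure D1:**
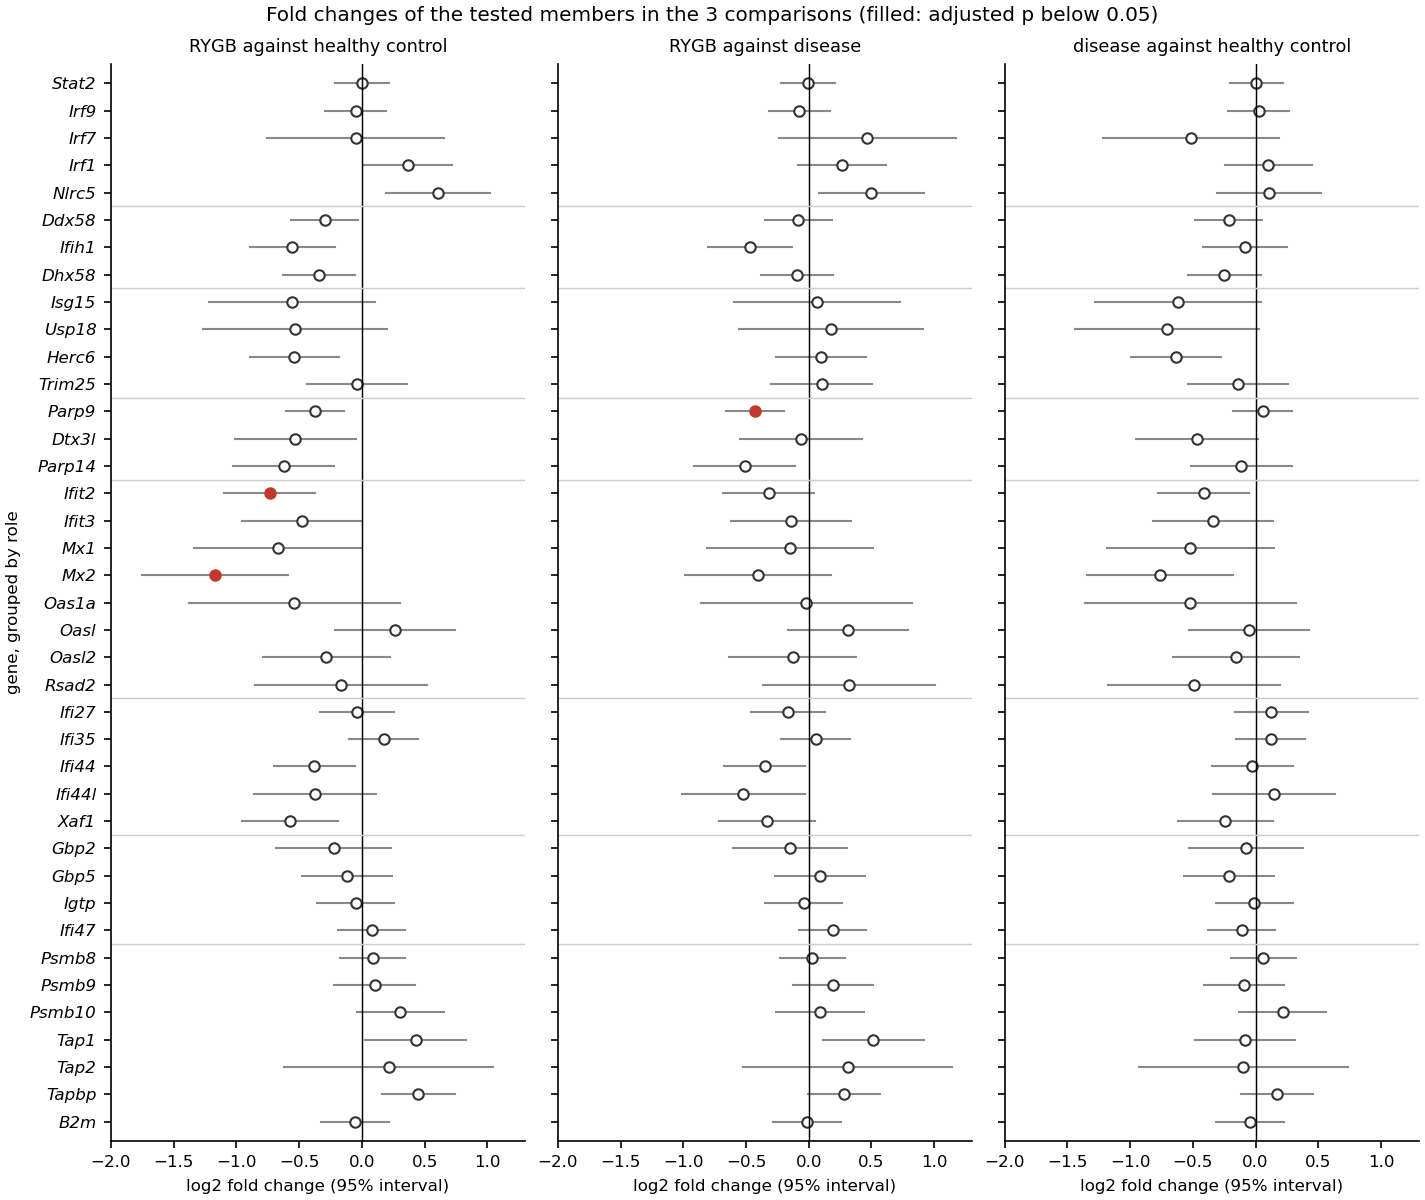
Log2 fold changes of the 39 tested members (x axis, log2 scale of value + 1) with 95% intervals, by role down the page, in 3 panels for RYGB against healthy control, RYGB against disease, and disease against healthy control; filled points passed the test. Filled points are Mx2 and Ifit2 in RYGB against healthy control and Parp9 in RYGB against disease, and disease against healthy control has none.

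Among the antiviral effectors, 8 of the 9 genes in the table were tested. All 8 were below 0 in disease against healthy control, with a median fold change of -0.45 and no call, 7 of 8 in RYGB against healthy control, with a median of -0.51 and 2 calls, and 6 of 8 in RYGB against disease, with a median of -0.13 and no call. These counts held under quantile, TMM, edgeR and DESeq2 scaling. Mx1, the other Mx GTPase, spanned 58.7 to 99.1 normalised reads in RYGB libraries (median 89.1), 61.8 to 207 in disease libraries (median 79.3) and 46.6 to 184 in healthy control libraries (median 168). The healthy control range took in that of RYGB, with replicate 4 at its lower end, while disease replicate 1 was the highest of all 18 libraries. RYGB against healthy control gave -0.67 ± 0.32 (adjusted p = 0.187) for Mx1, and without healthy control replicate 4 it was -0.97 (adjusted p = 0.0219).

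Ifit3, a partner of Ifit2 in the same family, averaged 88.7 ± 27.2 in RYGB libraries, 98.1 ± 34.6 in disease libraries and 122 ± 27.7 in healthy control libraries (SD, n = 6 each, as for the means that follow). Rsad2, which encodes viperin, a radical enzyme that makes a chain-ending nucleotide, averaged 152 ± 21.7 in RYGB libraries, 137 ± 81.3 in disease libraries and 187 ± 84.3 in healthy control libraries. Its spread in RYGB libraries, 125 to 181, lay within those of disease (64.6 to 281) and healthy control (73.6 to 301). The oligoadenylate synthetases signal foreign double-stranded RNA to RNase L. Oas1a averaged 20.4 ± 4.81 in RYGB libraries, 24.6 ± 12.7 in disease libraries and 30.7 ± 9.93 in healthy control libraries, and the related Oasl2 averaged 97.2 ± 14.2 in RYGB libraries, 109 ± 32.7 in disease libraries and 125 ± 41.6 in healthy control libraries. Oasl averaged 40.7 ± 10.7 in RYGB libraries, 32.8 ± 9.12 in disease libraries and 33.7 ± 8.29 in healthy control libraries, and was the 1 tested effector whose mean was higher in RYGB than in healthy control libraries. None of Ifit3, Rsad2, Oas1a, Oasl and Oasl2 was called by limma in any comparison. Reads that fit several copies of the Ifit, Mx or Oas families were not counted to a gene, so these levels are uncertain.

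**Figure D2:**
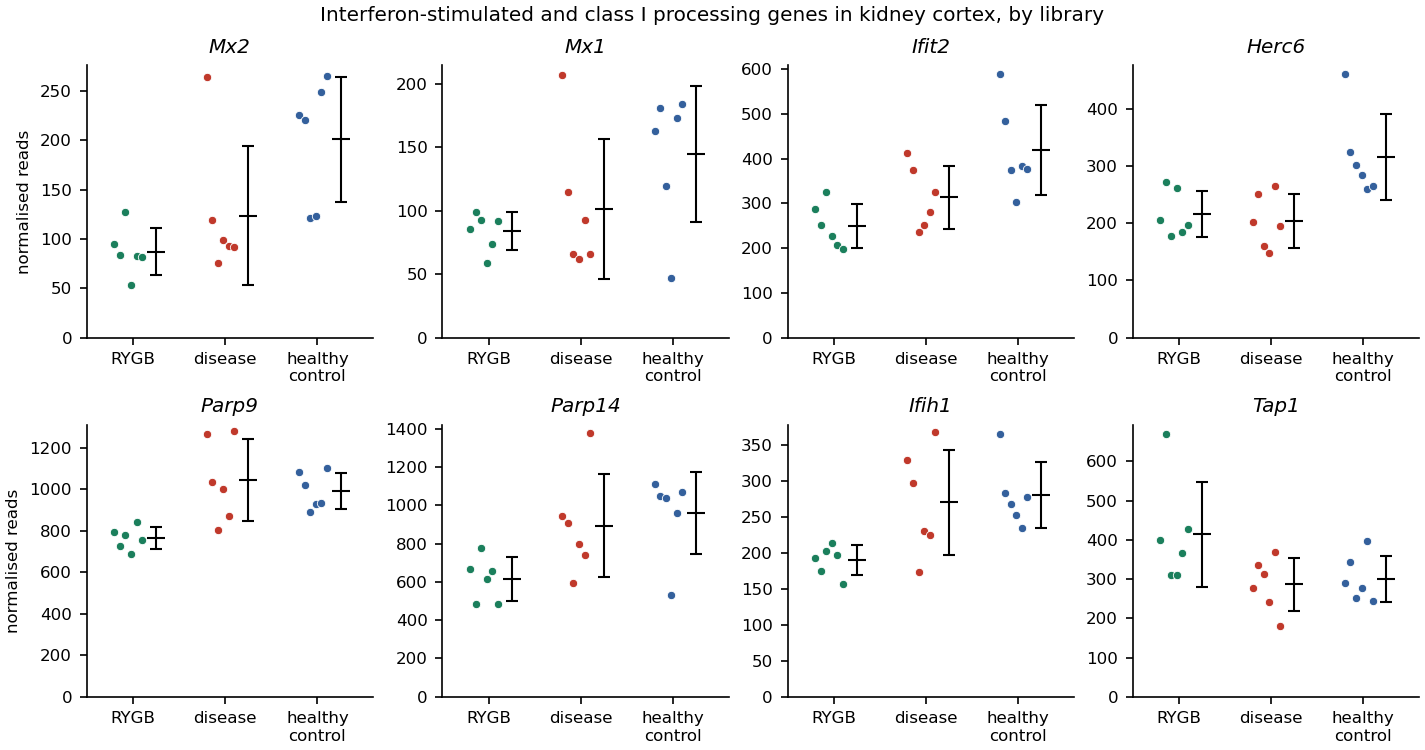
Normalised reads per library (y axis) of Mx2, Mx1, Ifit2, Herc6, Parp9, Parp14, Ifih1 and Tap1, in RYGB, disease and healthy control libraries from left to right. Points are libraries, and a black bar with whiskers gives the mean ± SD of 6. Mx2, Ifit2 and Parp9 were each called by limma in 1 comparison, and the other genes shown in none. Mx2 and Ifit2 have their lowest means in RYGB libraries, and disease replicate 1 sits far above the other disease libraries for Mx2 (264 against 119.5 for the next).

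In the ISG15 system all 4 members were below 0 in disease against healthy control and in RYGB against healthy control, and all 4 were above 0 in RYGB against disease, under each of the 5 scalings and with no call by limma. Their median fold changes were -0.63, -0.54 and 0.10 in that order. Herc6, the main ISG15 ligase in mouse, spanned 177 to 272 normalised reads in RYGB libraries (median 201), 148 to 265 in disease libraries (median 198) and 259.7 to 461 in healthy control libraries (median 294). Most RYGB libraries and most disease libraries lay below the healthy control range, with some overlap in both. Disease against healthy control gave -0.64 ± 0.17 (adjusted p = 0.0678) for Herc6, and the call was made by DESeq2 (adjusted p = 0.0201), with quantile normalization (0.0464) and without disease replicate 5 (0.0367). In RYGB against healthy control it was called by DESeq2 (0.0296) and not by limma (0.0687).

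Isg15, the ubiquitin-like modifier itself, spanned 23.1 to 52.5 normalised reads in RYGB libraries (median 30.5), 15.3 to 59.8 in disease libraries (median 34.7) and 24.5 to 84.9 in healthy control libraries (median 51.3). Usp18, which removes ISG15 and dampens interferon receptor signalling, spanned 22.1 to 34.5 normalised reads in RYGB libraries (median 27.9), 10.2 to 44.8 in disease libraries (median 26.9) and 12.3 to 63.4 in healthy control libraries (median 51.5). In both genes healthy control replicate 4 was the lowest of its group and disease replicate 6 the lowest of all 18 libraries, and the groups overlapped. Without healthy control replicate 4 the fold change of Usp18 in disease against healthy control was -1.03 (adjusted p = 0.0624), and that of Isg15 was -0.82 (adjusted p = 0.197). Without disease replicate 6 they were -0.47 (adjusted p = 0.454) and -0.41 (adjusted p = 0.475). Trim25, a ubiquitin ligase that activates the sensor RIG-I, averaged 260.4 ± 70.8 in RYGB libraries, 244 ± 68.9 in disease libraries and 262 ± 40.9 in healthy control libraries, with overlapping groups.

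All 3 RNA sensors were below 0 in every comparison under each scaling, and none was called by limma. Ifih1, which encodes MDA5, the sensor of long double-stranded RNA, spanned 157 to 214 normalised reads in RYGB libraries (median 195), 174 to 368 in disease libraries (median 264) and 235 to 366 in healthy control libraries (median 274). Every RYGB library was below every healthy control library, while disease libraries ran from the RYGB range to above all healthy control libraries. The fold change of RYGB against disease was -0.47 ± 0.16 (adjusted p = 0.107), and without disease replicate 3 it was -0.59 (adjusted p = 0.0293). Ddx58, which encodes RIG-I, averaged 458 ± 40.9 in RYGB libraries, 493 ± 107 in disease libraries and 563 ± 61.6 in healthy control libraries. Dhx58, which encodes the regulator LGP2, averaged 98.0 ± 15.2 in RYGB libraries, 105 ± 14.8 in disease libraries and 124 ± 14.2 in healthy control libraries. Both had their lowest means in RYGB libraries, with overlapping groups.

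The ADP-ribosylation genes Parp9, Dtx3l and Parp14 were all below 0 in RYGB against disease and in RYGB against healthy control, with medians of -0.43 and -0.53, and Parp9 was the 1 call. Parp14, a large ADP-ribosyltransferase with a role in macrophage activation, spanned 483 to 778 normalised reads in RYGB libraries (median 637), 597 to 1378 in disease libraries (median 853) and 532 to 1111 in healthy control libraries (median 1045). RYGB libraries lay below 5 of the 6 healthy control libraries, the exception being replicate 4, and disease libraries ran from the RYGB range to the highest value of all. The fold change of RYGB against healthy control was -0.62 ± 0.19 (adjusted p = 0.0649). It was called by edgeR (adjusted p = 0.0495), by DESeq2 (0.0188), with the compared groups alone (0.0413) and without healthy control replicate 4 (-0.79, adjusted p = 0.00664), disease replicate 6 (0.0363) or RYGB replicate 3 (0.0381). Dtx3l, the ubiquitin ligase partner of PARP9, averaged 104 ± 16.5 in RYGB libraries, 116 ± 46.4 in disease libraries and 153 ± 33.8 in healthy control libraries, so that its disease mean lay near that of RYGB, while the disease mean of Parp9 lay near that of healthy control (764 ± 54.4 in RYGB libraries, 1043 ± 197 in disease libraries and 992 ± 87.1 in healthy control libraries).

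Of the 5 other interferon-induced genes none was called by limma, and DESeq2 called Xaf1 in RYGB against healthy control (adjusted p = 0.0141). Ifi44l, an inducible cytoplasmic protein, spanned 25.1 to 46.5 normalised reads in RYGB libraries (median 31.6), 33.0 to 57.3 in disease libraries (median 47.8) and 28.2 to 71.2 in healthy control libraries (median 36.8), with overlap between all groups. Its neighbour Ifi44 averaged 151 ± 37.6 in RYGB libraries, 189 ± 24.4 in disease libraries and 194 ± 29.5 in healthy control libraries. Xaf1, a partner of the apoptosis inhibitor XIAP, averaged 47.2 ± 8.17 in RYGB libraries, 60.3 ± 13.4 in disease libraries and 71.0 ± 14.7 in healthy control libraries. These 3 genes had their lowest means in RYGB libraries, as did Ifi27. Ifi27, a small hydrophobic membrane protein, averaged 871 ± 141 in RYGB libraries, 986 ± 199.6 in disease libraries and 890.0 ± 90.2 in healthy control libraries. Ifi35, a leucine-zipper protein, averaged 369 ± 40.1 in RYGB libraries, 358 ± 60.7 in disease libraries and 329 ± 55.7 in healthy control libraries, the 1 gene of the 5 above 0 in both RYGB comparisons.

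The 4 interferon-induced GTPases attack membrane-bound pathogens and had no call by limma in any comparison. Gbp2, a guanylate-binding protein, averaged 243 ± 39.4 in RYGB libraries, 282 ± 111 in disease libraries and 290.1 ± 87.0 in healthy control libraries. Gbp5, of the same family, averaged 102 ± 14.3 in RYGB libraries, 96.4 ± 17.4 in disease libraries and 113 ± 29.5 in healthy control libraries. The immunity-related GTPase Igtp averaged 512 ± 76.7 in RYGB libraries, 524 ± 59.0 in disease libraries and 537 ± 110.3 in healthy control libraries, and Ifi47, of that family too, averaged 289 ± 45.4 in RYGB libraries, 252 ± 21.4 in disease libraries and 274 ± 45.2 in healthy control libraries. The groups overlapped for each of the 4, and reads that fit several copies of these families were not counted.

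The transcription regulators differed among themselves. Stat2 averaged 793 ± 82.9 in RYGB libraries, 795 ± 72.6 in disease libraries and 794 ± 97.7 in healthy control libraries, and Irf9, its partner in the type I interferon complex, averaged 225 ± 28.1 in RYGB libraries, 235 ± 15.9 in disease libraries and 233 ± 34.7 in healthy control libraries. Group means of each of these factors of the type I signal differed by less than their SDs. Irf7, the amplifier of type I interferon production, averaged 139 ± 55.3 in RYGB libraries, 108 ± 49.2 in disease libraries and 144 ± 45.7 in healthy control libraries, with RYGB replicate 2 far above the rest of its group (248 against 148.5). Irf1, the main second-step factor of interferon gamma, averaged 508 ± 114 in RYGB libraries, 418 ± 69.0 in disease libraries and 393 ± 86.5 in healthy control libraries.

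Nlrc5, the transactivator of class I genes, spanned 54.1 to 105 normalised reads in RYGB libraries (median 89.1), 40.1 to 69.6 in disease libraries (median 58.6) and 36.8 to 68.8 in healthy control libraries (median 53.4). The upper RYGB libraries lay above all disease and healthy control libraries, and the lower ones lay within both ranges. Its fold change was 0.61 ± 0.20 (adjusted p = 0.0774) in RYGB against healthy control and 0.50 ± 0.20 (adjusted p = 0.161) in RYGB against disease. The first was called with quantile normalization (adjusted p = 0.0446), by DESeq2 (0.0413) and without RYGB replicate 3 (0.0441).

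Fold changes of the class I processing genes lay mostly above 0 in the RYGB comparisons: 6 of 7 genes against healthy control (6 under each scaling) and 6 of 7 against disease (5 to 7 over the scalings), with medians of 0.21 and 0.19 and no call by limma. In disease against healthy control 3 genes were above 0 and 4 below, with a median of -0.042. This balance turned with the tool, since 4 were above 0 and 3 below with edgeR (median 0.058) and with DESeq2 (0.076). Tap1, a subunit of the peptide transporter of the endoplasmic reticulum, spanned 309 to 669.5 normalised reads in RYGB libraries (median 384), 182 to 370.0 in disease libraries (median 295) and 244 to 397 in healthy control libraries (median 284). RYGB replicate 2 was far above the other RYGB libraries (next 426), which reached from within the disease range to above it. Without that library the fold change of RYGB against disease was 0.37 (adjusted p = 0.279), against 0.51 ± 0.19 with it.

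Tapbp, which encodes tapasin, the bridge between transporter and class I molecule, spanned 891 to 1452 normalised reads in RYGB libraries (median 1163), 771 to 1181 in disease libraries (median 932) and 676 to 993 in healthy control libraries (median 824). RYGB libraries ran higher than healthy control libraries with overlap (adjusted p = 0.0619 by limma, 0.0492 by edgeR and 0.0228 by DESeq2). Tap2, the other transporter subunit, was near the filter, at 6.56 to 45.0 normalised reads in RYGB libraries (median 13.7), 4.98 to 27.7 in disease libraries (median 12.1) and 11.7 to 15.97 in healthy control libraries (median 12.9). B2m, the light chain of class I molecules, averaged 19348 ± 2636 in RYGB libraries, 19558 ± 3194 in disease libraries and 20036 ± 2199 in healthy control libraries, with group means closer than the spread within any group.

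The immunoproteasome subunits Psmb8, Psmb9 and Psmb10 replace Psmb5, Psmb6 and Psmb7 in the proteasome under interferon. Psmb8 averaged 229.5 ± 32.3 in RYGB libraries, 225 ± 27.2 in disease libraries and 216 ± 27.1 in healthy control libraries, Psmb9 averaged 299.8 ± 58.3 in RYGB libraries, 263 ± 49.6 in disease libraries and 278 ± 40.0 in healthy control libraries, and Psmb10 averaged 269 ± 50.3 in RYGB libraries, 254 ± 56.3 in disease libraries and 215 ± 27.9 in healthy control libraries. The ratio of each to its counterpart within a library does not depend on the size factor, but gene lengths were not at hand, so it shows change between groups and not the makeup of proteasomes.

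The ratio Psmb8/Psmb5 was 0.120 to 0.220 in RYGB libraries (median 0.158), 0.111 to 0.198 in disease libraries (median 0.175) and 0.136 to 0.229 in healthy control libraries (median 0.175). Psmb9/Psmb6 was 0.176 to 0.297 in RYGB libraries (median 0.244), 0.167 to 0.252 in disease libraries (median 0.205) and 0.179 to 0.345 in healthy control libraries (median 0.270). Psmb10/Psmb7 was 0.0665 to 0.126 in RYGB libraries (median 0.101), 0.0520 to 0.143 in disease libraries (median 0.0952) and 0.0576 to 0.106 in healthy control libraries (median 0.0913). Groups overlapped for every ratio. In two-sided exact permutation tests over 924 splits, whose smallest possible p is 0.00216, none of the 9 comparisons passed after adjustment: Psmb9/Psmb6 in disease against healthy control had a log2 difference of -0.37 (exact p = 0.0433, adjusted over 9 tests 0.390), and the other 8 had adjusted p from 0.794 to 0.9004.

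**Figure D3:**
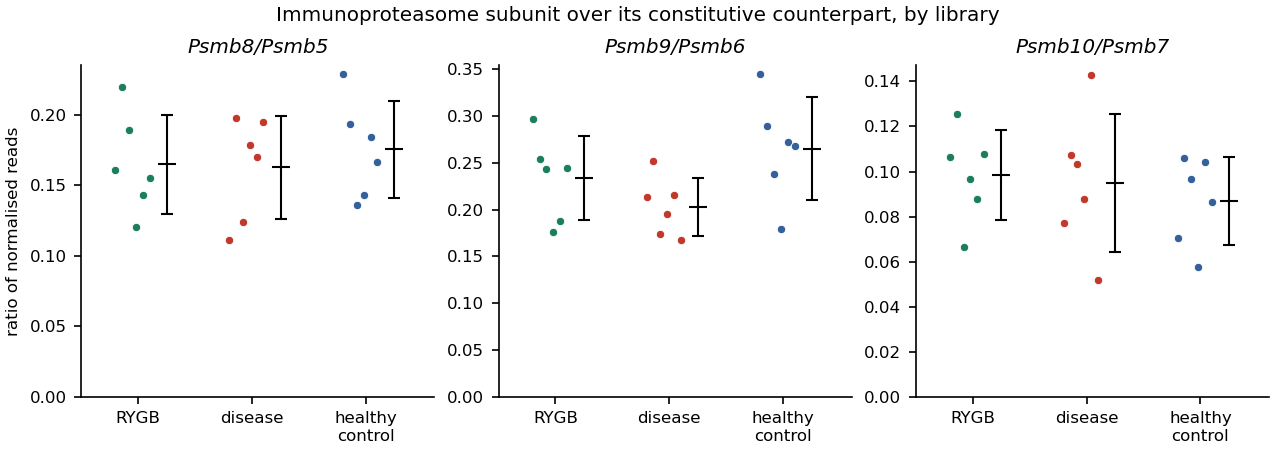
Ratio of each immunoproteasome subunit to its constitutive counterpart per library (y axis), in RYGB, disease and healthy control libraries from left to right, with the mean ± SD of 6. The ranges overlap in all 3 pairs, and the lowest median of Psmb9/Psmb6 is in disease libraries (0.205, against 0.244 in RYGB and 0.270 in healthy control).

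Genes around the members in the pathway were taken from lists drawn up by function. Interferon ligands and receptors had 7 genes in the table. The 6 tested were all receptor chains (Ifnar1, Ifnar2, Ifngr1, Ifngr2, Ifnlr1 and Il10rb), so no ligand was tested. None of the 6 was called by limma in any comparison. At an unadjusted p below 0.05, 1 was higher in disease against healthy control (5.19% of all tested genes), 1 was lower in RYGB against disease (9.54%) and 2 were higher in RYGB against healthy control (14.4%). The 1 lower in RYGB against disease was Il10rb, a receptor chain shared by interferon lambda and interleukin 10, named here after its values were seen. Il10rb spanned 549 to 637 normalised reads in RYGB libraries (median 596), 685 to 762 in disease libraries (median 708) and 562 to 759 in healthy control libraries (median 664), so RYGB libraries lay below all disease libraries, where 2.6% of all tested genes had no overlap. Its fold change of -0.28 ± 0.08 (adjusted p = 0.0618) was called by DESeq2 (adjusted p = 0.00768) and not by limma or edgeR. Interferon gamma itself, Ifng, had 0 reads in all RYGB libraries, at most 2.49 normalised reads in disease libraries and at most 1.53 in healthy control libraries, so its level was not detectable in most libraries at this depth. Of 22 signalling and sensing genes, 2 rose in RYGB against healthy control, where limma called 4.44% of all tested genes, and limma called none in the other comparisons. Ciita, the class II counterpart of Nlrc5, averaged 195 ± 30.4 in RYGB libraries, 145 ± 20.5 in disease libraries and 102 ± 24.8 in healthy control libraries, with 0.95 ± 0.17 (adjusted p = 0.00366) in RYGB against healthy control and no overlap between these groups, and its call held in each of the alternatives run. Irf5, a factor of inflammatory cytokine genes, averaged 358 ± 77.7 in RYGB libraries, 334 ± 77.4 in disease libraries and 222 ± 31.8 in healthy control libraries, with 0.67 ± 0.17 (adjusted p = 0.0353), and its call ended with the replicate number as a block (adjusted p = 0.0643) and without healthy control replicate 1, 2, 3, 5 or 6 or RYGB replicate 1, 4, 5 or 6 (0.0554 to 0.0988).

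Of 33 further interferon-induced genes limma called 1 in disease against healthy control, where it called 1.61% of all tested genes. It called the same 1 in RYGB against healthy control (4.44%) and none in RYGB against disease (3.95%). The gene was Cxcl11, a chemokine that draws activated T cells. Cxcl11 averaged 334 ± 59.4 in RYGB libraries, 353 ± 71.8 in disease libraries and 224 ± 32.9 in healthy control libraries, and it rose by 0.64 ± 0.15 (adjusted p = 0.0254) in disease and by 0.56 ± 0.15 (adjusted p = 0.0353) in RYGB, each against healthy control. The first call ended without healthy control replicate 2, 3, 5 or 6 or disease replicate 3 or 4 (adjusted p 0.0507 to 0.0754), and the second without healthy control replicate 1, 2, 3, 5 or 6 or RYGB replicate 1, 2, 4 or 5 (0.0606 to 0.0845). The median fold change over the 33 genes was 0.044 in disease against healthy control, with 14 below 0 (49.6% of all tested genes). It was -0.19 in RYGB against disease, with 28 of 33 below 0 (50.1% of all tested genes). In RYGB against healthy control it was -0.097, with 23 below 0 (51.6%). The 7 tested class I loading partners and the 12 constitutive proteasome subunits had no call by limma in any comparison, and class I heavy chain genes (RT1 symbols) were not analysed here.

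Markers of cells that can carry this programme moved too, and in bulk tissue fewer cells of a type and less RNA per cell cannot be told apart. Markers said here and in the next paragraph to rise or fall were called by limma. It called 1.61% of all tested genes in disease against healthy control, 3.95% in RYGB against disease and 4.44% in RYGB against healthy control. Of 10 tested macrophage and dendritic cell markers, 7 were above 0 in disease against healthy control. At an unadjusted p below 0.05 limma had 6 higher, against 5.19% of all tested genes. DESeq2 called 4 higher, where it called 2.93% of all tested genes in either direction. Lyz2 rose in disease and in RYGB against healthy control, and Mrc1 fell in RYGB against both other groups. Adgre1 averaged 364 ± 67.3 in RYGB libraries, 288 ± 50.3 in disease libraries and 378 ± 125 in healthy control libraries. The summed level of the 11 in the table was 7487 to 10645 in RYGB, 8341 to 10784 in disease and 5419 to 7625 in healthy control, of which Lyz2 was 62.6 to 75.5%. The disease and healthy control ranges of this sum did not overlap, and without Lyz2 they did, at 1919 to 2818 in RYGB, 2496 to 3146 in disease and 1690.2 to 2639 in healthy control. Of 5 endothelial markers, Vwf fell in disease against healthy control, Vwf and Cdh5 fell in RYGB against healthy control, and the sum was 7997 to 10116 in RYGB, 8004 to 11884 in disease and 8663 to 14215 in healthy control. Of 10 tested T and NK lymphocyte markers, 6 were above 0 and 4 below in disease against healthy control. Prf1 and Gzma, of cytotoxic granules, fell, while the T cell receptor chains Cd3e, at 1.19 ± 0.32 (adjusted p = 0.0684), and Cd247, at 1.00 ± 0.32 (adjusted p = 0.158), were called higher by edgeR and DESeq2 and not by limma. Cd3e averaged 13.4 ± 4.07 in RYGB libraries, 27.9 ± 10.8 in disease libraries and 11.3 ± 3.99 in healthy control libraries, and Cd3g averaged 10.1 ± 3.49 in RYGB libraries, 25.2 ± 11.6 in disease libraries and 11.5 ± 6.31 in healthy control libraries. Both were called lower in RYGB against disease by edgeR and DESeq2 and not by limma. Gzmk and Nkg7 rose and Cd4 fell in RYGB against disease, and Gzmk rose and Prf1 fell in RYGB against healthy control.

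The sum of the 14 lymphocyte markers in the table was 491 to 581 in RYGB, 606 to 901 in disease and 434 to 739 in healthy control, the RYGB range lying below that of disease. Cd4 alone was 67.7 to 82.4% of it. Without Cd4 the groups overlapped, at 130.3 to 169 in RYGB, 107 to 248 in disease and 137 to 239 in healthy control. The 6 B and plasma cell markers summed to 19.7 to 36.0 in RYGB, 24.7 to 38.3 in disease and 9.81 to 36.2 in healthy control, with 1 tested and none called. Proximal tubule markers, 6 tested and none called by limma, summed to 182070.0 to 284154 in RYGB, 103836 to 233991 in disease and 97528 to 197893 in healthy control. Umod, of 4 other nephron markers, fell in disease against healthy control and rose in RYGB against disease, and their sum was 50641 to 124944 in RYGB, 27679 to 79239.7 in disease and 76808 to 102169 in healthy control. In the list of adipocyte, muscle, liver and blood markers, Adipoq fell in RYGB against disease and Alas2 rose in RYGB against healthy control among 3 tested, Plin1 was at 0 in all disease and healthy control libraries, and the sum of the 7 in the table was 689 to 1619.7 in RYGB, 514 to 1061 in disease and 434 to 888.5 in healthy control. The part of any of these lists in the members' values was not tested.

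Within each group the extremes fell in the same libraries for many members. Among RYGB libraries, replicate 2 held the highest value of its group for 21 of the 39 members and replicate 4 the lowest for 14. Among disease libraries, replicate 1 was highest for 14 members and replicate 6 lowest for 15. In healthy control, replicate 4 was lowest for 23 members and highest for none, and it lay above the median of all 18 libraries for 6 members, while replicates 2 and 5 did so for 35 and 34. Healthy control replicate 4 (8116638 gene reads), disease replicate 1 (8157977) and RYGB replicate 2 (12470525) were the shallowest libraries of their groups. Disease replicate 6 had 11975867 gene reads and RYGB replicate 4 had 25419385. Whether depth has a part in these counts was not tested. The counts were not made over all tested genes, so they do not mark a trait of the members.

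**Figure D4:**
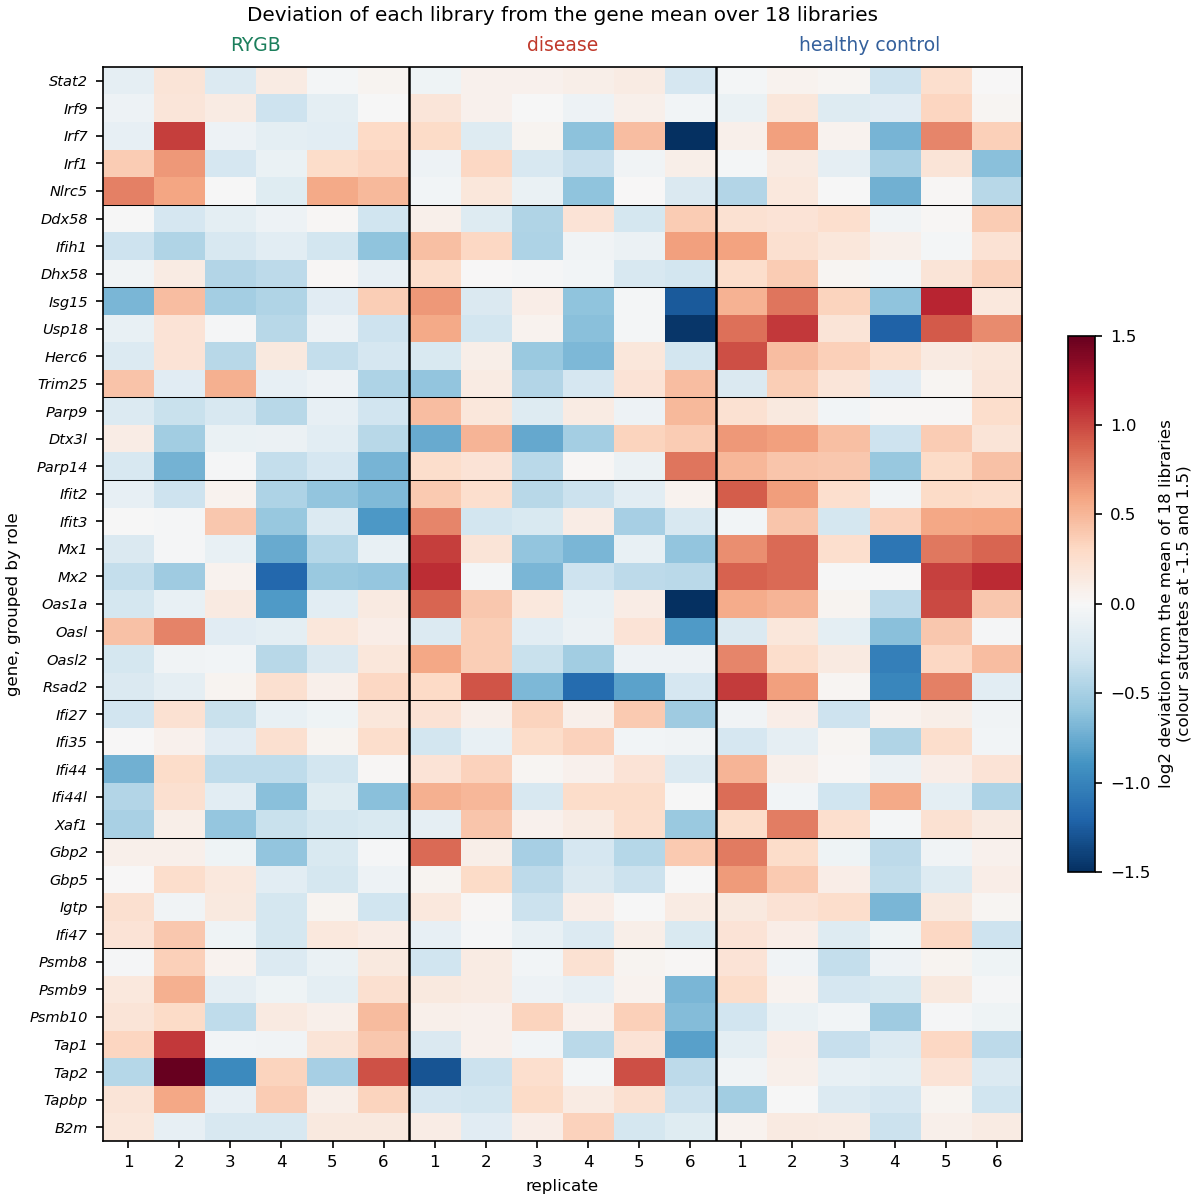
Deviation of each of the 39 tested members (rows, by role) from its mean over all 18 libraries, on the log2(value + 1) scale, with RYGB, disease and healthy control libraries from left to right. Healthy control replicate 4 is low across most members (lowest of its group in 23), and RYGB replicate 2 is high across many (highest of its group in 21).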

How the data were processed

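The deposited signal is a gene's read count over the library's size factor, as computed by the authors. FastQC 0.11.2, MultiQC 0.9, HTSeq 0.6.1p1, DESeq2 and the Rnor 5.0 build are named per the submitters' processing notes. The aligner, the annotation and the strand setting of the counting are among the points not given in the sources used here. Per the labels' protocols, RNA came from frozen cortical sections and libraries from a stranded kit for polyadenylated RNA. The table has 18423 lines, of which 3 name no gene. These 3, for reads outside genes (27.62 to 43.17% of the total), multi-mapped reads (13.46 to 18.13%) and reads over more than 1 gene (0.06949 to 0.1137%), were left out. Values are whole multiples of a step in each library: at least 99.9946% came out whole within 0.01 reads, so whole reads were recovered for the count tests. Size factors ran from 0.4014 to 2.022. Libraries of a group all differed by more than counting noise (chi-square per degree of freedom at least 21.43).

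The 13988 genes that reached 10 in 6 or more libraries entered limma-trend (limma 3.58.1 in R 4.3.3) on log2(value + 1), a pseudocount of 1 that understates the change of low genes, in 1 fit of 3 group means over 18 libraries with 15 residual degrees of freedom. P-values are two-sided and adjusted by Benjamini-Hochberg within a comparison. edgeR 4.0.16 (quasi-likelihood) and DESeq2 1.42.0 on recovered reads, other pseudocounts, filters and scalings, the compared groups alone, a replicate block and each library left out were alternatives. All members are named with levels, and fold changes are given for called members and the 5 largest per comparison; Ifih1, Parp9 and Tapbp elsewhere were added after their values were seen. Members, lists and alternatives were chosen with earlier results of these data known. All 3 tools were first run on counts simulated from the means, spread and depths of all 18 libraries. Changes were put into the disease libraries and scored in disease against healthy control. Each tool recovered a smaller share of 1.5-fold changes than of larger ones, limma and edgeR less than DESeq2, so a small change can go uncalled. A larger share of the calls was false with DESeq2 than with limma or edgeR, which bears on calls made by DESeq2 alone. Promoters came from RefSeq (GRCr8), used for names, neighbours and sequences only, not for the table's coordinates.

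Replicate numbers 1 to 6 recur in the titles of each group. Deviations of same-numbered libraries correlated at 0.131 to 0.325 between disease and healthy control (6 of 6 pairs over 0.1), at -0.557 to 0.309 between RYGB and disease (1 of 6) and at -0.31 to 0.014 between RYGB and healthy control (0 of 6). The labels do not say what a number marks, so the pairing of disease with healthy control rests on these correlations alone. There 3 of 6 disease libraries correlated best with their own number, and correlations with another number reached 0.389.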

Additional observations from a re-analysis of the deposited data

Results flagged for a closer look

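Among 117 sets of 6 values (39 members in 3 groups), 11 had a highest or lowest library with a gap to its nearest neighbour above Dixon's 95% critical value for 6 values. Chance gives about 1 such set in 20 if values follow a normal distribution. The sets share the same libraries, so they are not independent and their count cannot be set against that rate. Disease replicate 1 was the highest of its group for Mx1 (206.8 normalised reads, next 114.6) and Mx2 (264.1, next 119.5). RYGB replicate 2 was the highest for Irf7 (247.7, next 148.5) and Tap1 (669.5, next 426.4). Healthy control replicate 4 was the lowest for Parp14 (532.3, next 962.4), Igtp (321.4, next 529.5) and B2m (15648, next 20229). Healthy control replicate 1 was the highest for Herc6 (461.2, next 324.7) and healthy control replicate 2 for Xaf1 (99.33, next 70.11). Disease replicate 3 was the lowest for Igtp (413.7, next 514.9) and disease replicate 6 for Psmb10 (152.8, next 252.8).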

How the results depend on the processing

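Depth and the spread between 6 libraries limit small changes, and low members such as Tap2, Oas1a and Usp18 have the widest intervals. Of 563 alternative values of the 20 named fold changes, 503 kept direction and side of the threshold, 45 kept direction and lost a call, 15 kept direction and gained one, and 0 changed sign. Direction could not change without a library of the third group, with the compared groups alone or with a replicate block. In those settings limma gives the same difference of group means. The 20 were also the called or largest fold changes, so the count of 0 says little about smaller ones. Counts of members called are given with the share of all tested genes called in the same setting. Members called in disease against healthy control (0, 1.61%) became 1 with quantile normalization (2.04%) and 1 with DESeq2 (2.93%), Herc6 in both. Over libraries left out the range was 0 to 1 (0.901 to 2.23%). In RYGB against disease 1 (3.95%) became 0 with the compared groups alone (3.05%), with a range of 0 to 2 over libraries left out (1.87 to 5.86%). In RYGB against healthy control 2 (4.44%) became 5 with quantile normalization (5.79%), 6 with edgeR (6.05%), 9 with DESeq2 (11.5%) and 8 with the compared groups alone (10.3%). Over libraries left out the range was 0 to 7 (1.49 to 10.8%). The causes were not tested. With the replicate number as a block the members called were 0 in disease against healthy control (1.13%), 1 in RYGB against disease (2.92%) and 2 in RYGB against healthy control (3.55%). The block within disease and healthy control alone, chosen after seeing the data, gave 0 (1.8%). The block over all 3 groups ended the call of Irf5 (adjusted p = 0.0643) and no other. With libraries left out, the log2 ratio difference of Psmb8/Psmb5 in RYGB against disease ran from -0.079 to 0.11, that of Psmb10/Psmb7 from -0.036 to 0.25 in disease against healthy control and from -0.069 to 0.22 in RYGB against disease, none past the threshold. No scaling moved the median of all genes by 0.1. Over all tested genes, the 225 calls of disease against healthy control were 143 with a minimum value of 50 and 410 with DESeq2, the 552 of RYGB against disease were 1098 with DESeq2, and the 621 of RYGB against healthy control were 1442 with the compared groups alone, 1602 with DESeq2 and 209 to 1506 with a library left out, the highest without healthy control replicate 4.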
